A study of Homo sapiens with 8 samples.

Results

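HOX genes were compared between LoVo and GP5d, cell lines of human colorectal cancer. The rule named 38 HOX genes by their Ensembl gene IDs, in all 4 clusters, and 24 with a row among the 19002 genes of the deposited table are reported here. These are 7 genes of the HOXA cluster, 6 of HOXB, 4 of HOXC and 7 of HOXD. Another 13 genes, HOXA5, HOXA6, HOXA10, HOXB4, HOXB8, HOXB9, HOXC5, HOXC6, HOXC8, HOXC9, HOXC10, HOXD4 and HOXD11, were not analysed here, nor was HOXB7. The names of the IDs came with the gene list, since the table itself holds no names.

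RNA of 4 biological replicates of LoVo and 4 of GP5d was measured on 8 Affymetrix arrays. LoVo was established from a metastasis of a colon adenocarcinoma, and GP5d is likewise a colon adenocarcinoma line. Both were grown on plastic in DMEM with serum and antibiotics, and the labels name no treatment, genotype change or batch. Each group is 1 cell line, so a difference between the groups is a difference between these lines, and the p-values measure the spread between these replicates.

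HOX genes encode homeodomain transcription factors that give cells their position along the body axis. In mammals they lie in 4 clusters, here on chromosomes 7 (HOXA), 17 (HOXB), 12 (HOXC) and 2 (HOXD). Genes at the same place in different clusters are paralogs and carry the same number. Low numbers are used at the front of the embryo and high numbers towards the rear, the hindgut included. HOX proteins bind DNA together with PBX and MEIS proteins, and Polycomb and Trithorax complexes hold the genes off or on. Adult colon epithelium keeps part of this code.

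The values are on the log2 scale and form a tall peak at its low end, whose upper end was set at 2.80. Values up to that end, 46.0% of the table, are called the low peak here, and their order is not reliable. Each probe set binds with its own strength, so levels of different genes were not compared. LoVo replicate 3 stood apart. Its correlations across genes with the rest of LoVo were 0.989 to 0.991, and it gave the highest or the lowest of the 4 LoVo values at 18 of the 24 HOX genes. Over all genes that share was 70.2%. Each called difference is therefore also given without it. The tissue of origin could not be checked against marker genes, because the IDs outside the HOX list could not be named here.

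The lines differed in part of their HOX genes, mostly with lower values in LoVo. Of the 24 genes, 8 were called different, with a limma adjusted p under 0.05 and a difference of at least 2-fold. HOXA13 was higher in LoVo, and HOXB2, HOXB3, HOXB6, HOXC11, HOXC13, HOXD1 and HOXD10 were lower. This is 33.3% of the HOX genes reported, where 13.3% of all 19002 genes were called (6.12% in the direction of LoVo and 7.2% in that of GP5d). Among all genes above the low peak on all 4 arrays of at least 1 line, 23.7% were called. Among the HOX genes that met this condition 44.4% were called. A gene can meet it through only the line in which it is high. That condition held for 75% of these HOX genes and for 54.9% of all genes. The median log2 difference, LoVo minus GP5d, was -0.24 over the 24 HOX genes and 0.05 over all genes. With the other scalings the value of all genes was 0.0034 to 0.08 and that of the HOX genes -0.24 to -0.21. Over genes above the low peak in at least 1 line, the median was -0.03 for all genes and -0.67 for the HOX genes. All 18 of these HOX genes met the condition in GP5d and 12 also in LoVo, so none entered through LoVo alone. Entry through GP5d alone favours lower values in LoVo, so -0.67 adds no support beyond the -0.24 of all 24 genes. No test was made for the list as a whole.

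**Figure D1:**
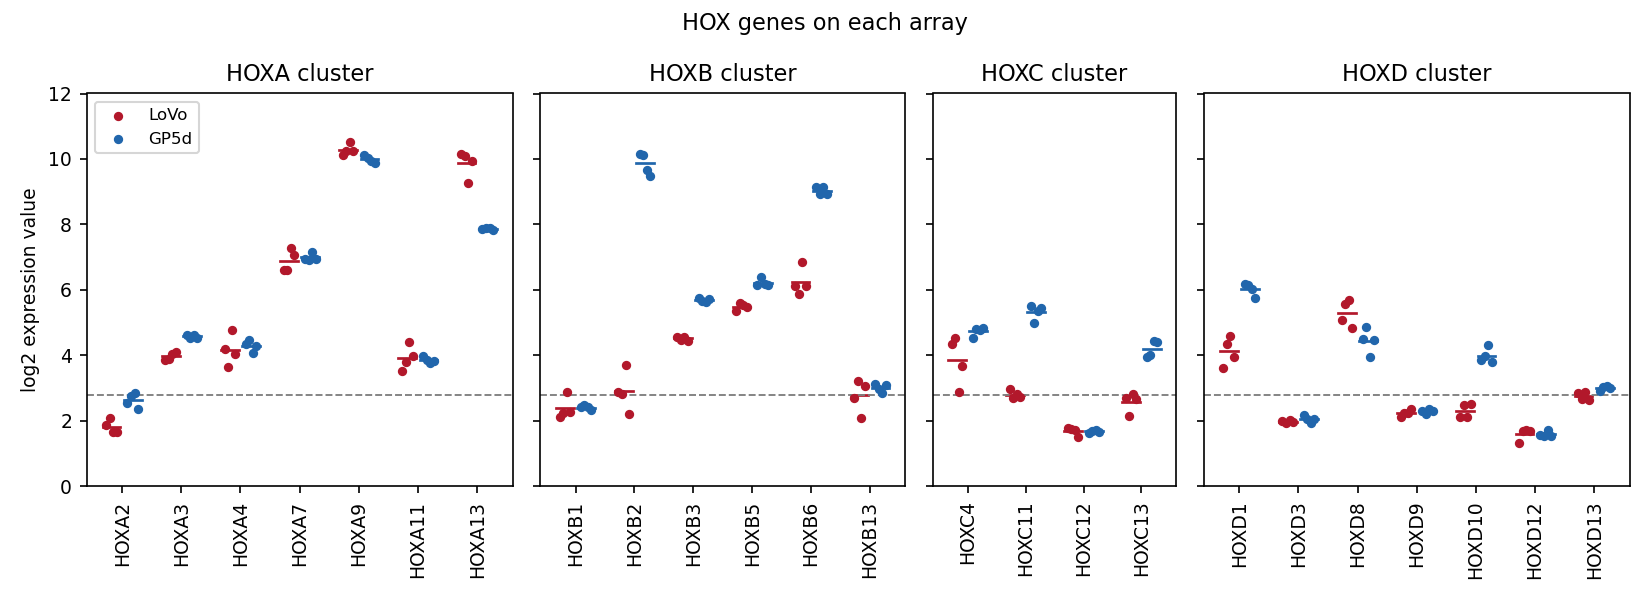
Log2 expression value (vertical axis) of each HOX gene reported, in the 4 clusters from low to high paralog number. Points are arrays, with 4 of LoVo (red) left of 4 of GP5d (blue), horizontal bars are means, and the dashed line is the end of the low peak at 2.80. HOXB2 shows the widest gap between the lines, with all LoVo arrays at or below 3.69 and all GP5d arrays at or above 9.49.

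More HOX genes were above the low peak in GP5d than in LoVo. On all 4 LoVo arrays 12 of the 24 genes (50%) lay above it, and on all 4 GP5d arrays 18 (75%) did. Among all genes these shares were 50.2% in LoVo and 52% in GP5d. LoVo arrays scattered more, with a median SD of 0.263 over the HOX genes against 0.112 in GP5d, and the part of this scatter in the counts was not tested. The 12 genes of LoVo were all among the 18 of GP5d. The other 6 genes, HOXB2, HOXB13, HOXC11, HOXC13, HOXD10 and HOXD13, had at least 1 LoVo array in the low peak. HOXC12, HOXD3, HOXD9 and HOXD12 lay within the low peak on all 8 arrays, so no difference could be measured for them. HOXA2 and HOXB1 were each above it on 1 array.

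The HOXB cluster held the widest difference. HOXB2 (ENSG00000173917_at), which in mouse embryos patterns the hindbrain, had log2 values of 2.88, 2.82, 3.69 and 2.22 in LoVo, against 10.16, 10.12, 9.67 and 9.49 in GP5d. The lines did not overlap, and LoVo lay at the edge of the low peak, with 3 of its 4 arrays above it. The log2 difference was -6.96 (SE 0.279, limma adjusted p = 3.61e-08), so HOXB2 was 125-fold higher in GP5d on the deposited scale and 113-fold with low values raised to the end of the low peak. Only 11 of the 19002 genes had a more negative difference. The highest LoVo value was that of replicate 3, and without it the difference was -7.22.

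Other HOXB genes differed less. HOXB6 (ENSG00000108511_at), a HOX gene of the middle of the cluster that is also used in blood progenitors, had log2 values of 6.11, 5.87, 6.84 and 6.12 in LoVo, against 9.13, 8.93, 9.13 and 8.92 in GP5d. Both lines were above the low peak and did not overlap. The lines differed by -2.79 (SE 0.184, adjusted p = 1.15e-06 by limma), 6.93-fold, which was -3.0 without LoVo replicate 3. HOXB3 (ENSG00000120093_at), the neighbour of HOXB2, had log2 values of 4.57, 4.47, 4.56 and 4.44 in LoVo, against 5.75, 5.65, 5.61 and 5.71 in GP5d. Replicates were close and the lines did not overlap, although the log2 difference was small. Limma estimated it at -1.17 (SE 0.0745, adjusted p = 9.12e-07). Limma's treat, which tests against a 2-fold difference, gave an adjusted p of 0.279 for HOXB3, and it was the only called HOX gene that this test did not call, where 6.58% of all genes passed it. The RefSeq gene region of HOXB3, from first to last base on either strand, overlaps HOXB4 and, like that of HOXB2, HOXB-AS1. Which of them the probes detect was not tested.

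The remaining HOXB genes were not called. HOXB5, which in mouse takes part in forming the nerves of the gut, had log2 values of 5.34, 5.58, 5.54 and 5.47 in LoVo, against 6.14, 6.39, 6.18 and 6.15 in GP5d. It passed the adjusted p and its lines did not overlap, but the log2 difference of -0.73 (95% confidence interval -0.93 to -0.53) was under 2-fold. HOXB13, a marker of prostate and of the most distal colon, had log2 values of 2.70, 3.22, 2.09 and 3.06 in LoVo, against 3.11, 2.97, 2.86 and 3.08 in GP5d. The lines overlapped close to the low peak, and the difference of -0.23 had an interval of -0.71 to 0.24. HOXB1, a hindbrain gene in mouse, was above the low peak only on LoVo replicate 3, at 2.86. HOXB2 thus stood between HOXB1, with 7 of 8 values in the low peak, and HOXB3, which was measured in both lines.

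**Figure D2:**
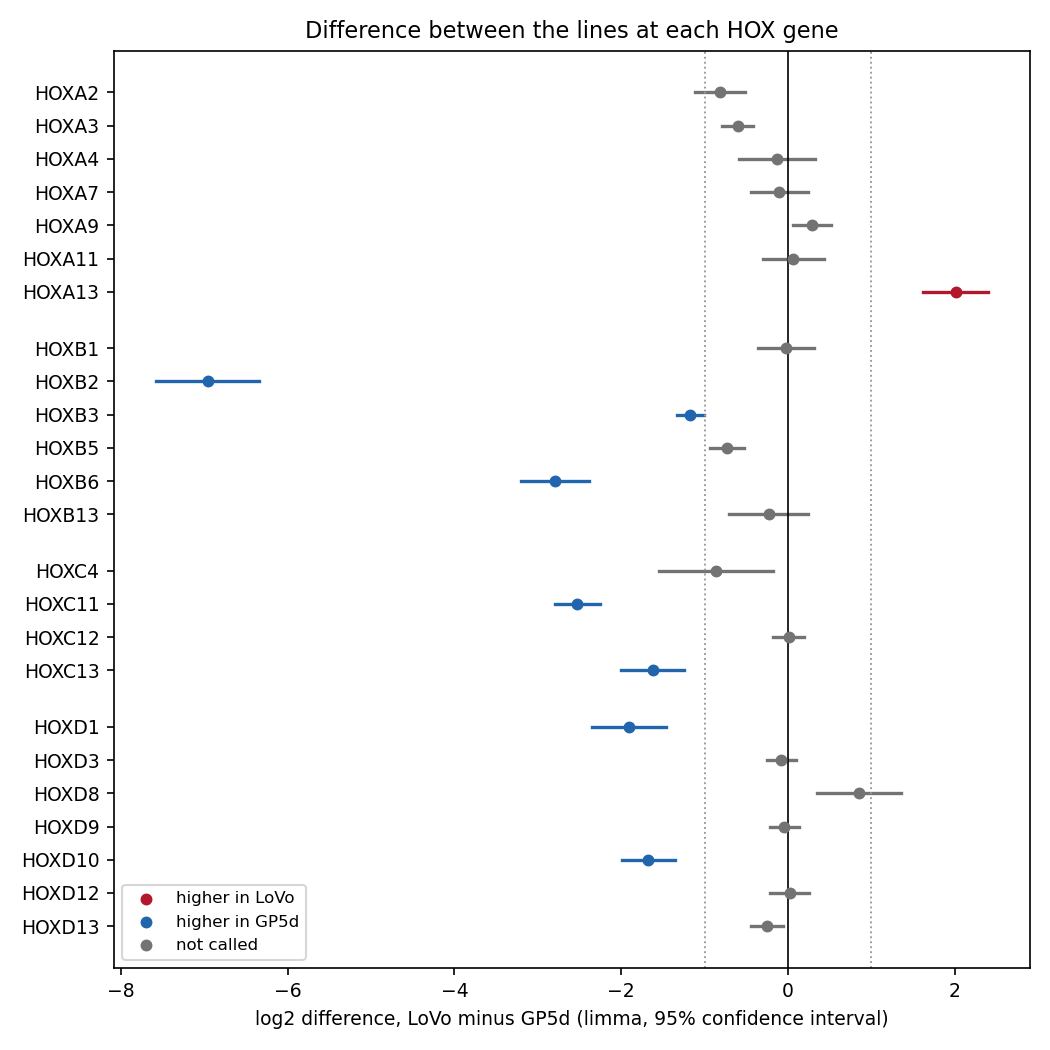
Log2 difference, LoVo minus GP5d (horizontal axis), of each HOX gene reported, with its 95% confidence interval from limma. Red marks the gene called higher in LoVo, blue the 7 called higher in GP5d and grey the 16 not called, and dotted lines mark 2-fold. HOXA13 alone lies to the right of the dotted lines, at 2.01.

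HOXA13 (ENSG00000106031_at) was the exception in direction. It is a posterior HOX gene that forms the hindgut, the genital tract and the digits, and its mutation in people causes hand-foot-genital syndrome. Its log2 values were 10.16, 10.10, 9.26 and 9.94 in LoVo, against 7.85, 7.88, 7.88 and 7.82 in GP5d. Every LoVo array was above every GP5d array, and the lowest LoVo array was replicate 3. The lines thus differed by 2.01 on the log2 scale (SE 0.175, limma adjusted p = 8.44e-06), so LoVo was 4.02-fold higher, and it was 2.21 without that array. HOXA13 was far above the low peak in both lines.

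The other HOXA genes differed by less than 2-fold. HOXA9, which promotes growth of blood progenitors and of leukaemias, had log2 values of 10.12, 10.24, 10.52 and 10.25 in LoVo, against 10.11, 10.04, 9.92 and 9.87 in GP5d. The lines were separated only narrowly, and the difference of 0.29 (interval 0.06 to 0.52) had a limma adjusted p of 0.0411, which was 0.0578 without LoVo replicate 3. HOXA7 had log2 values of 6.60, 6.61, 7.27 and 7.07 in LoVo, against 6.95, 6.92, 7.16 and 6.95 in GP5d. These overlapped, and the interval of the difference was -0.45 to 0.24. HOXA9 and HOXA13 both belong to the high-numbered part of the cluster and were far above the low peak in both lines, and HOXA13 was called while HOXA9 was not. The difference between the differences of these genes was not tested.

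HOXA3 also differed by less than 2-fold. HOXA3, which in mouse is needed for thymus and parathyroid, had log2 values of 3.86, 3.87, 4.05 and 4.10 in LoVo, against 4.62, 4.54, 4.61 and 4.53 in GP5d. LoVo was lower without overlap, with a difference of -0.61 (interval -0.79 to -0.42, limma adjusted p = 0.000189). The RefSeq gene region of HOXA3 overlaps those of HOXA4, HOXA5 and HOXA6. Whether the probes of HOXA3 and HOXA4 share signal was not tested.

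HOXA4 and HOXA11 were not called either. HOXA4 had log2 values of 4.18, 3.64, 4.77 and 4.03 in LoVo, against 4.35, 4.46, 4.08 and 4.28 in GP5d, and the lines overlapped. HOXA11, which shapes limb, kidney and uterus, had log2 values of 3.52, 3.79, 4.39 and 3.97 in LoVo, against 3.98, 3.87, 3.75 and 3.81 in GP5d. The intervals of the differences were -0.59 to 0.32 at HOXA4 and -0.30 to 0.43 at HOXA11. On LoVo replicate 3 both genes had the highest value of the 4 LoVo arrays. HOXA2, a gene of the branchial arches, was above the low peak on 1 array, GP5d replicate 3 at 2.84. Its difference of -0.82 passed the adjusted p (limma, 0.000633), but its order rests on values within the low peak.

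In the HOXC cluster the called genes were HOXC11 and HOXC13. Of the lower-numbered HOXC genes only HOXC4 was reported here, so these calls cannot show a preference for a place in the cluster. HOXC11 (ENSG00000123388_at) had log2 values of 2.96, 2.68, 2.83 and 2.72 in LoVo, against 5.49, 5.0, 5.36 and 5.44 in GP5d. LoVo lay at the edge of the low peak, with 2 of its 4 arrays above it. The log2 difference was -2.53 (SE 0.119, limma adjusted p = 1.15e-07), 5.76-fold as deposited and 5.57-fold with low values raised to the end of the peak. HOXC13 (ENSG00000123364_at), a regulator of hair and nail keratins, had log2 values of 2.68, 2.13, 2.82 and 2.67 in LoVo, against 3.96, 3.99, 4.43 and 4.41 in GP5d. Only LoVo replicate 3 was above the low peak among the LoVo arrays, and the lines did not overlap. As a log2 difference this was -1.62 (SE 0.169, limma adjusted p = 2.86e-05), 3.08-fold as deposited and 2.63-fold with low values raised.

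HOXC12 lies between HOXC13 and HOXC11 in the cluster and was in the low peak on all 8 arrays. HOXC4 had log2 values of 4.34, 4.54, 2.88 and 3.67 in LoVo, against 4.52, 4.79, 4.77 and 4.83 in GP5d. It scattered more among LoVo arrays than any other HOX gene here (SD 0.748, n = 4), and the lowest value was that of replicate 3. The difference of -0.87 (interval -1.55 to -0.19, limma adjusted p = 0.0425) was not called. It was called when LoVo replicate 1 or 2 was left out, at -1.10 without replicate 2, and was -0.54 without replicate 3. The RefSeq gene regions of HOXC4, HOXC5 and HOXC6 overlap, and which of them the HOXC4 probes detect was not tested.

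In the HOXD cluster, called genes stood at separate places. HOXD1 (ENSG00000128645_at), which in mouse acts in pain-sensing neurons, had log2 values of 3.59, 4.35, 4.58 and 3.96 in LoVo, against 6.19, 6.14, 6.02 and 5.74 in GP5d. Both lines were above the low peak and did not overlap. The log2 difference was -1.90 (SE 0.199, limma adjusted p = 2.93e-05), 3.74-fold, and was -2.06 without LoVo replicate 3. HOXD10 (ENSG00000128710_at), which patterns limbs and spinal motor neurons, had log2 values of 2.11, 2.48, 2.11 and 2.51 in LoVo, against 3.84, 3.97, 4.31 and 3.8 in GP5d. All 4 LoVo arrays were in the low peak and all 4 GP5d arrays above it. The log2 difference was thus -1.68 (SE 0.142, adjusted p = 6.90e-06 by limma). With the LoVo values raised to the end of the peak, the level in GP5d was at least 2.27-fold that in LoVo.

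HOXD8 leaned the other way from HOXD1 and HOXD10 without being called. Its log2 values were 5.09, 5.58, 5.68 and 4.84 in LoVo, against 4.51, 4.85, 3.94 and 4.48 in GP5d. The lines overlapped by a narrow margin, and the difference was 0.85 (interval 0.35 to 1.35, limma adjusted p = 0.0112). Without LoVo replicate 4 it was 1.00 and was called. HOXD13, whose mutation causes synpolydactyly, had log2 values of 2.83, 2.65, 2.88 and 2.62 in LoVo, against 2.91, 3.03, 3.07 and 2.99 in GP5d. Its difference of -0.26 (interval -0.45 to -0.06, limma adjusted p = 0.0357) lay at the edge of the low peak. The other genes of the cluster, HOXD3, HOXD9 and HOXD12, did not leave it.

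RefSeq promoter windows, at annotated transcript starts, are shown for the called genes that had one. Where transcripts start in these lines was not measured. The windows are those of HOXA13, higher in LoVo, and of HOXD1 and HOXD10, higher in GP5d. Each window runs from 250 bases before to 50 bases after the start, in GRCh38.p14, at chr7:27200042-27200341 on the minus strand for HOXA13, chr2:176188418-176188717 on the plus strand for HOXD1 and chr2:176116528-176116827 on the plus strand for HOXD10. Capitals mark CpG dinucleotides, which are dense where HOX promoters lie in CpG islands.
HOXA13: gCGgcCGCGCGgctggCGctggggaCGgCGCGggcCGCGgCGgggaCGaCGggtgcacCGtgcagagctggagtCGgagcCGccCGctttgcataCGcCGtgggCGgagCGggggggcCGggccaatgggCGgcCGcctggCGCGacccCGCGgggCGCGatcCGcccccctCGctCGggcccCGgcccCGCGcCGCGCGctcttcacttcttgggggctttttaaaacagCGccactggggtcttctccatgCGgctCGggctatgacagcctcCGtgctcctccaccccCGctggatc
HOXD1: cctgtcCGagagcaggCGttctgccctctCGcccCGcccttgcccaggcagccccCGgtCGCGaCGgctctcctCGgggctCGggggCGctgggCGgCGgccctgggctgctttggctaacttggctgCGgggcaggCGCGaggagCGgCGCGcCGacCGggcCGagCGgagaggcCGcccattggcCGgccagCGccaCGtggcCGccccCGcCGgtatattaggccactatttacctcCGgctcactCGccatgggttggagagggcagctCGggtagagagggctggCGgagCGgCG
HOXD10: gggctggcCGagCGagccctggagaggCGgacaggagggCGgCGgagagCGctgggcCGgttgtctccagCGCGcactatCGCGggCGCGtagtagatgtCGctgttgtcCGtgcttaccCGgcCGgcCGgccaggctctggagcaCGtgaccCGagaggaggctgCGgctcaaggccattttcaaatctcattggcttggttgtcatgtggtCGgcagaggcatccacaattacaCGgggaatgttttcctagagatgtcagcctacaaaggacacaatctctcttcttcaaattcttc

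The windows held 44 CpG at HOXA13, 36 at HOXD1 and 23 at HOXD10, against a median of 14 over the 35116 windows of that length in the table. The HOXA13 count was reached by 4.19% of all windows, that of HOXD1 by 12.7% and that of HOXD10 by 35.8%. Of the HOX genes measured here, 15 had at least 1 window, and 14 had exactly 1, while HOXA3 had several. The median over these 21 windows was 22 CpG, which is not a median over genes. Single windows of genes not called held from 11 at HOXA2 and HOXB1 to 34 at HOXD8, with 31 at HOXA7 and 22 at HOXA9. A set of 3 short motifs written 5′ to 3′ were searched on both strands: TATAAA, the TATA box, CATAAA, a core of the sites that CDX factors bind, and TGATTNAT, a site of HOX and PBX pairs. None of the 3 printed windows held any of them. TATAAA was in 11.53% of all windows, CATAAA in 10.6% and TGATTNAT in 2.82%. The array table holds no methylation or binding data for these windows.

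Paralogs of the same number did not always differ in the same direction. In paralog group 13, HOXA13 had a log2 difference of 2.01 and HOXC13 of -1.62, and both were called, while HOXB13 at -0.23 and HOXD13 at -0.26 were not. HOXD1 was called at -1.90, and its paralog HOXB1, mostly in the low peak, was at -0.03. HOXB3 at -1.17 and HOXA3 at -0.61 were both negative. HOXA2, the paralog of HOXB2, had 7 of its 8 values in the low peak and gives no usable direction. In group 11, HOXC11 was called at -2.53, and HOXA11 at 0.06 was not. Probes that bind more than 1 paralog could blur such differences, and probe sequences were not used here.

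**Figure D3:**
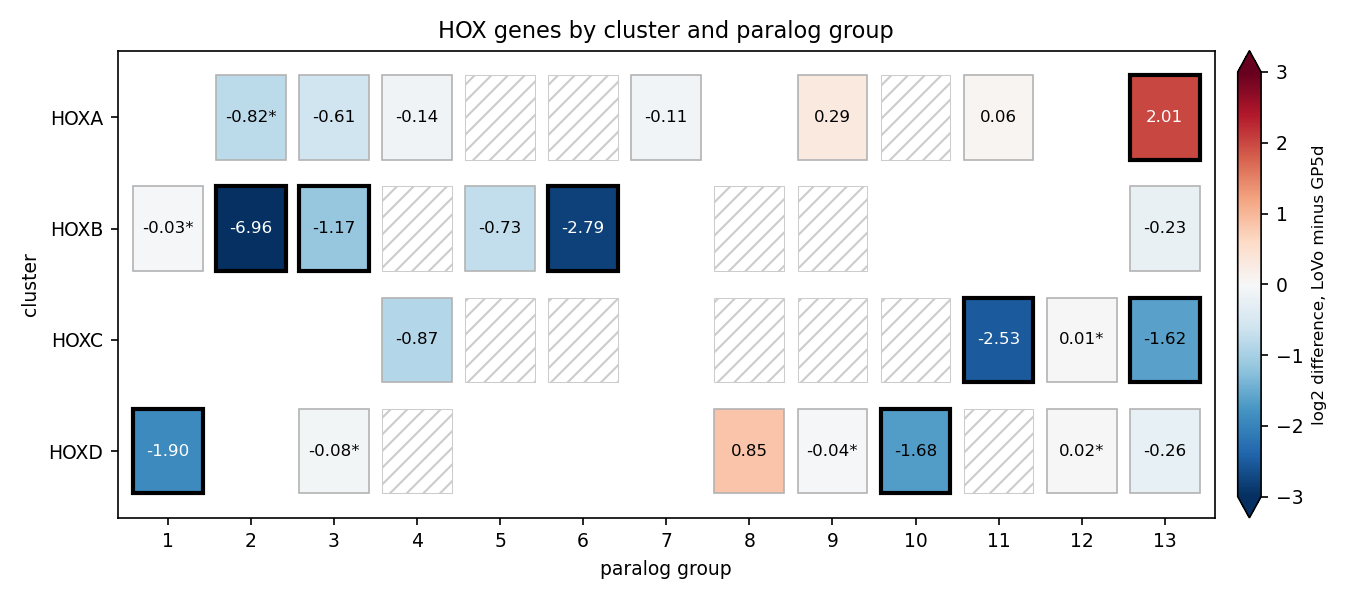
Log2 difference, LoVo minus GP5d, of each HOX gene, in cells by cluster (rows) and paralog group (columns). Colour runs from blue (higher in GP5d) to red (higher in LoVo) and is capped at -3 and 3, thick borders mark called genes, an asterisk marks genes without all 4 arrays of either line above the low peak, hatched cells are genes not analysed here and empty places hold no gene reported here. The only deep red cell is HOXA13 at 2.01, above HOXC13 at -1.62 in the same column.

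By cluster, calls were made at 1 of 7 HOXA genes, 3 of 6 HOXB genes, 2 of 4 HOXC genes and 2 of 7 HOXD genes, with 13.3% of all genes called. The median log2 difference was -0.95 in HOXB and -1.25 in HOXC. In HOXA it was -0.11, which became -0.07 with a common median and -0.23 without LoVo replicate 3. In HOXD it was -0.08, between -0.14 after quantile normalization and -0.05 with a common median. The -0.08 is the value of HOXD3, which lay in the low peak on all 8 arrays, as did HOXD9 and HOXD12. The other HOXD genes were at -1.90 (HOXD1), -1.68 (HOXD10), -0.26 (HOXD13) and 0.85 (HOXD8). HOXC12, also in the low peak on all 8 arrays, counts in the HOXC median. The HOXC and HOXD medians thus include genes for which no difference could be measured. By paralog number, calls were made at 3 of 7 genes of groups 1 to 3, 1 of 6 of groups 4 to 8 and 4 of 11 of groups 9 to 13. All 6 reported genes of groups 4 to 8 were above the low peak in both lines. Among all genes, 50.2% were above it on all 4 LoVo arrays and 52% on all 4 GP5d arrays. In those groups HOXA5, HOXA6, HOXB4, HOXB8, HOXC5, HOXC6, HOXC8 and HOXD4 were not analysed, more genes than the 6 reported. The counts for groups 4 to 8 thus do not describe the middle of the clusters as a whole. Of the 13 genes without a row, 5 belong to the HOXC cluster. Medians over so few genes, with no test, describe these rows only.

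The 8 called genes kept their direction and call with each of the 8 arrays left out in turn. Without LoVo replicate 3, 13.5% of all genes were called. With LoVo replicate 3 left out, the log2 differences were -7.22 at HOXB2, -3.0 at HOXB6, -2.54 at HOXC11, -2.06 at HOXD1, -1.70 at HOXC13, -1.61 at HOXD10, -1.19 at HOXB3 and 2.21 at HOXA13. Within LoVo the called genes scattered by an SD of up to 0.604 at HOXB2, against up to 0.335 in GP5d for the same gene. HOXA13 had an SD of 0.413 among LoVo arrays and of 0.0256 among GP5d arrays (n = 4 each).

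**Figure D4:**
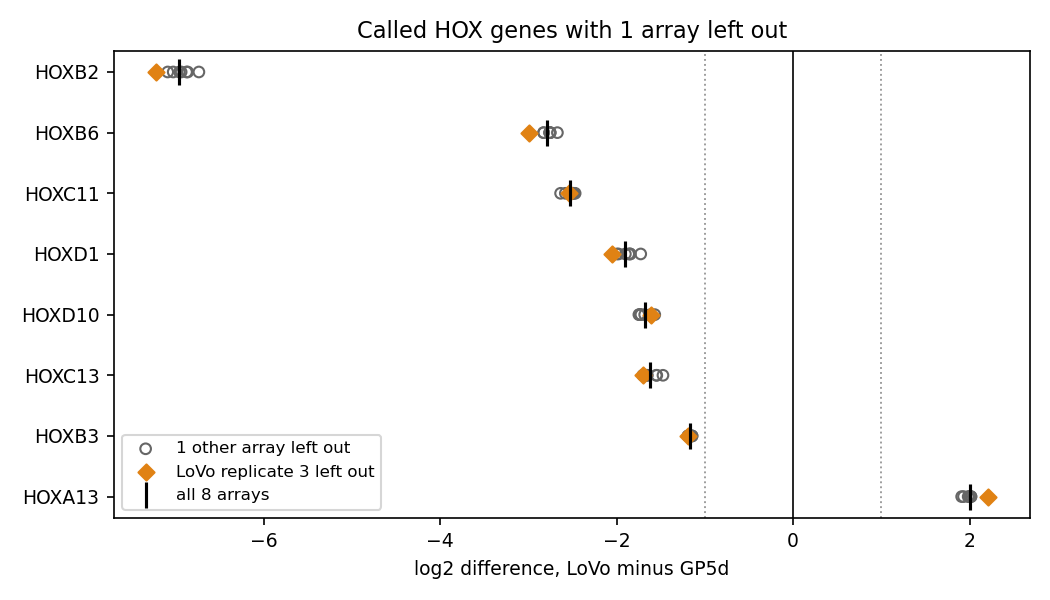
Log2 difference, LoVo minus GP5d (horizontal axis), of the 8 called HOX genes with all 8 arrays (black bars), with LoVo replicate 3 left out (orange diamonds) and with each other array left out (open circles), and dotted lines at 2-fold. No value crosses a dotted line, and the values of HOXB2 lie between -7.22 and -6.73.

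Without regard to size, the adjusted p was passed by 15 of the 24 HOX genes (62.5%) and by 43.3% of all genes. Of these, 7 HOX genes (29.2% of the 24) did not reach a 2-fold difference, against 30% of all genes. These 7 were HOXA9 and HOXD8 with higher values in LoVo, HOXA3, HOXB5, HOXC4 and HOXD13 with lower values in LoVo, and HOXA2. HOXA2 was above the low peak on 1 array only, so its lower values in LoVo give no usable direction. In all, the lines did not overlap at 13 of the 24 HOX genes, HOXA2 among them, where this held for 44.1% of all genes. The 9 genes past neither limit were HOXA4, HOXA7, HOXA11, HOXB1, HOXB13, HOXC12, HOXD3, HOXD9 and HOXD12. Missing the threshold does not show that these genes were alike in the lines, and the widest of their intervals was that of HOXB13.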

How the data were processed

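The table that the authors deposited holds log2 values, a row per gene and a column per array. Per the submitters' processing notes RMA and GCRMA are both named, and which of them made the table is unknown. Array type, build and annotation version are not given in the sources used. That the scale is log2 was read from the values, and whether the arrays had been normalized together was not tested. Probes had been grouped by Ensembl gene ID. The HOX genes and all lists were chosen with earlier results of these data known. The names of the 38 IDs came with the list, and 1 gene with a row is not reported here. The reference table pairs 0 row IDs with a symbol, so lists of HOX cofactors, ParaHox genes, neighbours, chromatin regulators and cell type markers were not analysed here.

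A linear model with the line as its factor was fitted to all genes and all 8 arrays (lmFit and eBayes of limma 3.58.1, R 4.3.3), leaving 6 residual degrees of freedom. Adjustment was by Benjamini-Hochberg over 19002 genes. Called means an adjusted p under 0.05 and an absolute log2 difference of at least 1. The fit was tested on simulated data, drawn with the same normal spread in both lines. LoVo arrays scattered more than GP5d arrays here, and that test does not cover unequal spread. The low peak ends at the mode of all values (1.87) plus 3 SDs (0.309) of the values below the mode. A bounded fold raises lower values to that end. By the rule for named genes, values on all arrays are given for genes called or above the low peak on all arrays of at least 1 line. Promoter windows are RefSeq's, GRCh38.p14. Arrays give no read depth, and their number limits the precision. Alternatives were other normalizations, filters, floors, variance priors, array weights, a replicate block, single arrays left out, other limits and limma's treat.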

Additional observations from a re-analysis of the deposited data

Results flagged for a closer look

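In 48 comparisons, 24 HOX genes in each line, the array farthest from the other 3 of its line was looked for with Dixon's test, and 3 stood far apart, where chance gives about 1 in 20. HOXA7 was at 7.157 in GP5d replicate 3, against 6.918 to 6.954 on the other GP5d arrays. HOXB5 was at 6.39 in GP5d replicate 2, against 6.142 to 6.176. HOXD12 was at 1.315 in LoVo replicate 1, against 1.671 to 1.72, all of them within the low peak. None of the 3 arrays was LoVo replicate 3, and none of these genes was called.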

How the results depend on the processing

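The count of 8 called HOX genes held, with the same 8 genes, under quantile normalization, cyclic loess, a common median, the filter on dim genes, the floor, the other variance prior and array weights. Leaving out 1 array gave 8 to 9 genes, 1 to 2 of them towards LoVo and 7 to 8 towards GP5d. HOXC4 joined without LoVo replicate 1 or 2, and HOXD8 without LoVo replicate 4. The minimum difference decided the count by construction. Without a minimum 15 genes passed (3 towards LoVo, 12 towards GP5d), and at least 4-fold was reached by 4 (1 and 3). The 12 include HOXA2, which was mostly in the low peak. Treat called 7, losing HOXB3. Of 306 alternative values of 18 genes, 302 kept direction and call or stayed uncalled, and no called gene changed sign. No label says whether arrays with the same replicate number were paired. Correlations of their deviations were -0.0341 to 0.0488, which cannot show that pairing was absent. With the number as a replicate block 8 genes were called. Genes above the low peak on all 4 arrays were 12 in LoVo and 18 in GP5d, 14 and 18 with its end at 2 SDs, 11 and 16 at 4 SDs, and 12 to 13 in LoVo with 1 LoVo array left out. Near the low peak, signal over background limits what the arrays can show. Lists of related genes could not be run without names.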
